A study of Homo sapiens with 18 samples.

Results

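The genes described here are those of HLA class I antigen presentation. They were chosen by name and comprise 10 of the 19147 genes that could be named on the arrays: the heavy chains HLA-B, HLA-C, HLA-E, HLA-F and HLA-G, the light chain B2M, the peptide transporter subunits TAP1 and TAP2, the loading factor TAPBP and the transactivator NLRC5. All 10 were found, on 28 probe sets. B2M lies on chromosome 15 and NLRC5 on chromosome 16, and the other 8 genes lie on chromosome 6. RNA was measured on 18 Affymetrix U133 Plus 2.0 arrays from human cells grown as MIND (mouse intraductal) xenografts, in which cells are injected into mammary ducts. There were 6 groups with 3 arrays each, namely DCIS.COM cells at 2, 6 and 10 weeks after injection and SUM225 cells at the same 3 times. DCIS.COM is a human breast line of basal-like ductal carcinoma in situ without estrogen receptor, progesterone receptor or HER2, and SUM225 is a line without the hormone receptors that overexpresses HER2. The hosts in every group were female NSG mice (NOD-SCID IL2Rgamma null, never mated), 8 to 10 weeks old at surgery, which have no T, B or natural killer cells. Cells were sorted magnetically for human EpCAM, and each replicate pooled 5 mice. No control group was part of the series, and with 1 line of each kind an effect of HER2 status cannot be told apart from any other difference between the lines.

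Class I molecules carry peptides from inside the cell to its surface, where cytotoxic T cells inspect them. A heavy chain encoded in the HLA region pairs with the invariant light chain B2M, and without B2M most heavy chains do not reach the surface. TAP1 and TAP2 form the pump that brings peptides into the endoplasmic reticulum, and tapasin, the product of TAPBP, holds empty class I molecules at that pump until they are loaded. HLA-B and HLA-C are classical chains, and HLA-E, HLA-F and HLA-G are nonclassical chains. Receptors of natural killer cells also read class I chains of both kinds. NLRC5 drives transcription of class I genes through a promoter module called SXY, and interferon raises most genes of the pathway through interferon-stimulated response elements. Loss of class I presentation is a known route by which tumors evade T cells.

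Reference promoters are shown for the genes that the measurements turn on, because these genes are often described as one coordinated unit. The sequences are the 250 bases before the transcription start in RefSeq on GRCh38.p14, read 5′ to 3′ along the gene, and are reference bases rather than the alleles of either line. Windows were found for 8 of the 10 genes, other than HLA-E and NLRC5. Capitals mark matches on either strand to the core of the interferon-stimulated response element (GAAA, any 2 bases, GAAA), the kappa B core (GGG, any base, ATTCCC), the CCAAT box (CCAAT) and the core of the X2 box (TGACGC). The windows are TAP1 at chr6:32853705-32853954 (minus strand), TAP2 at chr6:32838740-32838989 (minus strand), TAPBP at chr6:33314079-33314328 (minus strand), B2M at chr15:44711267-44711516 (plus strand), HLA-B at chr6:31357180-31357429 (minus strand) and HLA-C at chr6:31272093-31272342 (minus strand).
TAP1: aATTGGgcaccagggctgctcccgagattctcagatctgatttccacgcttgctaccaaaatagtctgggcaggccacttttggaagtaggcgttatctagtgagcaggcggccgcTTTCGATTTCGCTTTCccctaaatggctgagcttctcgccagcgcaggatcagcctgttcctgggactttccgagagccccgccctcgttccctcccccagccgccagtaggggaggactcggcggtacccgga
TAP2: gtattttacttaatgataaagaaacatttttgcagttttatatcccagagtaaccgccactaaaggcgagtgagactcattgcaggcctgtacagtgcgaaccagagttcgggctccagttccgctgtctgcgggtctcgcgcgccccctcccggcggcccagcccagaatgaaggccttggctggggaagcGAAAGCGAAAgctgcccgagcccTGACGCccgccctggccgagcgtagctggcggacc
TAPBP: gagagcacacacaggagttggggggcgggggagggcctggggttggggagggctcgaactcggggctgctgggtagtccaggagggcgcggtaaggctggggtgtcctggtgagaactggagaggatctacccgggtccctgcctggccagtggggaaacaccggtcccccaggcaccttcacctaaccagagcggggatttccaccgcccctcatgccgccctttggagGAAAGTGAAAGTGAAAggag
B2M: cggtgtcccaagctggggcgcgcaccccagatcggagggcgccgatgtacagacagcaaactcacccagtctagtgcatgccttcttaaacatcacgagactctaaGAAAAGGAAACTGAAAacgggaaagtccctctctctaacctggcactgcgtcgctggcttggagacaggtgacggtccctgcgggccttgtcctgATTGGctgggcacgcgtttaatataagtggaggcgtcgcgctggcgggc
HLA-B: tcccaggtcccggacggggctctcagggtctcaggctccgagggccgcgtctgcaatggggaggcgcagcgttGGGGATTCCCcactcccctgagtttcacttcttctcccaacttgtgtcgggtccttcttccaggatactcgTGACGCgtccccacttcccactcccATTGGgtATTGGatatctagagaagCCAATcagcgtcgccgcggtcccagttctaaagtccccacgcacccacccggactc
HLA-C: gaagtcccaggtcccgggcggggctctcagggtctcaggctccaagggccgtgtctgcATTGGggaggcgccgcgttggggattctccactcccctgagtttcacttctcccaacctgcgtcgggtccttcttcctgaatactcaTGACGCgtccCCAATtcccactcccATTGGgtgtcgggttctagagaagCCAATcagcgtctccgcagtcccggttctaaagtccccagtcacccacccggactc
The interferon response core was present in the windows of TAP1, TAP2, TAPBP and B2M, and also of HLA-F, against 3.02% of the 35116 windows of all genes. In TAP1 and in TAPBP 2 such matches overlapped, at 119 to 134 and at 5 to 20 bases before the start. In B2M 2 matches overlapped at 129 to 144 bases before the start, and in TAP2 a single match lay at 49 to 58 bases. The kappa B core occurred in HLA-B, at 168 to 177 bases before the start, and in no window of the other 7 genes, against 0.2% of all windows. The X2 core occurred in HLA-B, HLA-C and TAP2 (7.67% of all windows) and the CCAAT box in HLA-B, HLA-C, HLA-F, HLA-G, B2M and TAP1 (32.01%). TAP1 had a second window and HLA-G 2 further windows, with no match to any of the 4 motifs. Only these exact letters were sought. A window without a match can therefore still hold a variant of the same site. These matches describe the letters of the windows, and occupancy was not measured.

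The 28 probe sets differ in how specifically they read a gene. There were 15 whose ID ends in _x_at, in which some probes also match other transcripts, 5 that end in _s_at, whose probes are shared by several transcripts, and 8 others. The heavy chain genes are nearly identical over much of their length, so signal can be shared between them and between their alleles, and the brightest probe set of each of the 5 heavy chains ends in _x_at. Each gene is represented below by its brightest named probe set, the others are given where they passed or went against it, and levels are log2 intensities that were set against each other only to choose the brightest probe set. Probe sets were named only through the authors' tables of probe sets called between 2 and 6 weeks in at least 1 line. A probe set called in neither line therefore carries no name, and the counts for 6 against 2 weeks are partly fixed by that choice.

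The 2-week SUM225 arrays stood apart. EPCAM, the antigen used for sorting, read 12.73, 11.72 and 8.59 in their replicates 1, 2 and 3 and lay between 12.11 and 13.04 on the other 15 arrays. The correlation between replicates was 0.904, 0.76 and 0.926 in that group and 0.966 to 0.994 in the other 5 groups. The median of 18 epithelial markers was 10.29, 9.36 and 7.55 on the 3 arrays of 2-week SUM225. In 2-week DCIS.COM it was 10.02, 8.9 and 9.21, and on later arrays of both lines it was 9.79 to 10.4. DCIS.COM changes from 2 weeks rest on that baseline, and the part of the lower epithelial readings in them was not tested. Over 17 leukocyte markers the median was 6.1 to 6.37 in 2-week DCIS.COM and 5.91 to 6.98 in 2-week SUM225 arrays. On later arrays it was at most 5.91. The defining leukocyte gene PTPRC read low throughout, at 4.38 to 5.42 on 2-week arrays and 3.94 to 4.37 on later arrays. In bulk RNA, fewer cells of a type and less RNA per cell cannot be told apart. SUM225 changes from 2 weeks that passed, and counts of them, are given with and without replicates 2 and 3, where the single 2-week array left is taken to vary like the others.

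TAP1 rose in DCIS.COM xenografts after 2 weeks. It read 7.54, 7.04 and 7.34 at 2 weeks, 8.38, 8.10 and 8.03 at 6 weeks and 8.13, 8.36 and 8.59 at 10 weeks. Every later array lay above every 2-week array. The change was 0.86 (SE 0.17, adjusted p = 0.012 in limma, 1.82-fold) at 6 weeks and 1.05 (SE 0.19, adjusted p = 0.01, 2.07-fold) at 10 weeks, and both comparisons share the 2-week arrays. Without replicate 3 of 10 weeks the latter was 0.94 with an adjusted p of 0.051, and after quantile normalization the call at 6 weeks was lost (0.49, adjusted p = 0.062). With 3 against 3 arrays the exact permutation test cannot give a p below 0.1. In SUM225 the TAP1 values were 8.70, 8.05 and 7.82 at 2 weeks, 8.19, 7.76 and 7.59 at 6 weeks and 8.65, 7.95 and 7.92 at 10 weeks, and all 3 groups overlapped. At 2 weeks every SUM225 array lay above every DCIS.COM array, as for 11.7% of all probe sets. That 2-week difference did not pass in limma on the deposited values. It passed after quantile normalization (1.32, adjusted p = 0.037), as did 1.21% of all. The SUM225 change was -0.34 (SE 0.3, adjusted p = 0.34) at 6 weeks and -0.01 (SE 0.32, adjusted p = 0.98) at 10 weeks. Without replicates 2 and 3 of SUM225 at 2 weeks, the change at 6 weeks was -0.85 (adjusted p = 0.049). The difference between the lines in this change, SUM225 minus DCIS.COM, was -1.2 (SE 0.35) with an unadjusted p of 0.005 and an adjusted p of 0.18, which did not pass. It passed without those 2 arrays (-1.71, adjusted p = 0.04) and after quantile normalization (-1.59, adjusted p = 0.022).

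TAP2, the partner subunit of the pump, differed between the lines at 6 and 10 weeks and rose in DCIS.COM by 10 weeks. In DCIS.COM it read 8.07, 7.21 and 7.75 at 2 weeks, 8.47, 8.34 and 8.15 at 6 weeks and 8.52, 9.07 and 9.04 at 10 weeks. In SUM225 it read 6.75, 5.38 and 5.04, then 6.84, 5.83 and 5.94, and then 7.22, 6.37 and 6.29. Every SUM225 array lay below every DCIS.COM array of the same time. The difference, SUM225 minus DCIS.COM, was -2.11 at 6 weeks (SE 0.24, adjusted p = 1.1e-04, 4.32-fold lower) and -2.25 at 10 weeks (SE 0.26, adjusted p = 1.7e-04, 4.76-fold lower). At 2 weeks the difference was -1.96 (SE 0.46, adjusted p = 0.097). Within DCIS.COM, TAP2 rose by 1.20 from 2 to 10 weeks (SE 0.25, adjusted p = 0.015, 2.29-fold), and its change to 6 weeks of 0.64 (SE 0.22) stood at the threshold with an adjusted p of 0.05. The call at 10 weeks was lost without replicate 2 (1.10, adjusted p = 0.067) or 3 (1.11, adjusted p = 0.068) of 10 weeks or replicate 3 of 2 weeks (1.23, adjusted p = 0.054). Within SUM225 the changes were 0.49 (SE 0.48, adjusted p = 0.4) and 0.90 (SE 0.47, adjusted p = 0.13), and without replicates 2 and 3 of 2 weeks they were -0.54 (adjusted p = 0.3) and -0.12 (adjusted p = 0.81).

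The other 3 probe sets of TAP2 read otherwise. In DCIS.COM 204769_s_at, 204770_at and 208428_at changed by -0.25, -0.31 and -0.43 to 6 weeks and by -0.19, 0.02 and -0.53 to 10 weeks. None of these DCIS.COM changes passed in limma. Their group means at 6 weeks were 6.22, 5.07 and 3.98 in DCIS.COM and 5.97, 4.92 and 4.26 in SUM225. In SUM225, 204770_at fell by 0.72 (adjusted p = 0.04) and 208428_at fell by 0.60 (adjusted p = 0.048) from 2 to 6 weeks. On leaving out replicates 2 and 3 of 2 weeks these changes were -0.57 (adjusted p = 0.042) and -0.42 (adjusted p = 0.087). From 2 to 10 weeks they fell by 0.86 (adjusted p = 0.031) and 0.76 (adjusted p = 0.029), and without those arrays the changes were -0.71 (adjusted p = 0.07) and -0.58 (adjusted p = 0.046). Between the lines only 204770_at of these 3 passed, at 10 weeks (-0.62, SE 0.17, adjusted p = 0.026).

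TAPBP, which encodes tapasin, rose in DCIS.COM on one probe set and fell on the other. The brightest, 208829_at, read 7.89, 7.24 and 7.36 at 2 weeks, 8.68, 8.41 and 8.09 at 6 weeks and 7.98, 8.19 and 8.34 at 10 weeks. All later arrays were above the 2-week arrays. The change was 0.90 at 6 weeks (SE 0.22, adjusted p = 0.019) and 0.67 at 10 weeks (SE 0.21, adjusted p = 0.04). The call at 6 weeks was lost without replicate 1 of 6 weeks (0.75, adjusted p = 0.069) or replicate 2 (0.77, adjusted p = 0.061) or 3 (0.83, adjusted p = 0.067) of 2 weeks. At 10 weeks it was lost without replicate 2 or 3 of 10 weeks or of 2 weeks, with changes of 0.54 to 0.66 and adjusted p of 0.12 to 0.14. On 1555565_s_at the DCIS.COM change to 6 weeks was -0.66 (SE 0.15, adjusted p = 0.018). In SUM225, 208829_at read 8.48, 7.05 and 4.68 at 2 weeks and between 8.10 and 8.57 on the 6 later arrays. The changes did not pass, at 1.60 (SE 0.83, adjusted p = 0.13) by 6 and 1.54 (SE 0.83, adjusted p = 0.14) by 10 weeks. The second probe set fell in SUM225 as well, by 0.81 at 6 weeks (SE 0.25, adjusted p = 0.043) and by 0.98 at 10 weeks (SE 0.26, adjusted p = 0.028). When replicates 2 and 3 of 2 weeks were left out, its changes were -0.60 (adjusted p = 0.075) and -0.77 (adjusted p = 0.047).

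**Figure D1:**
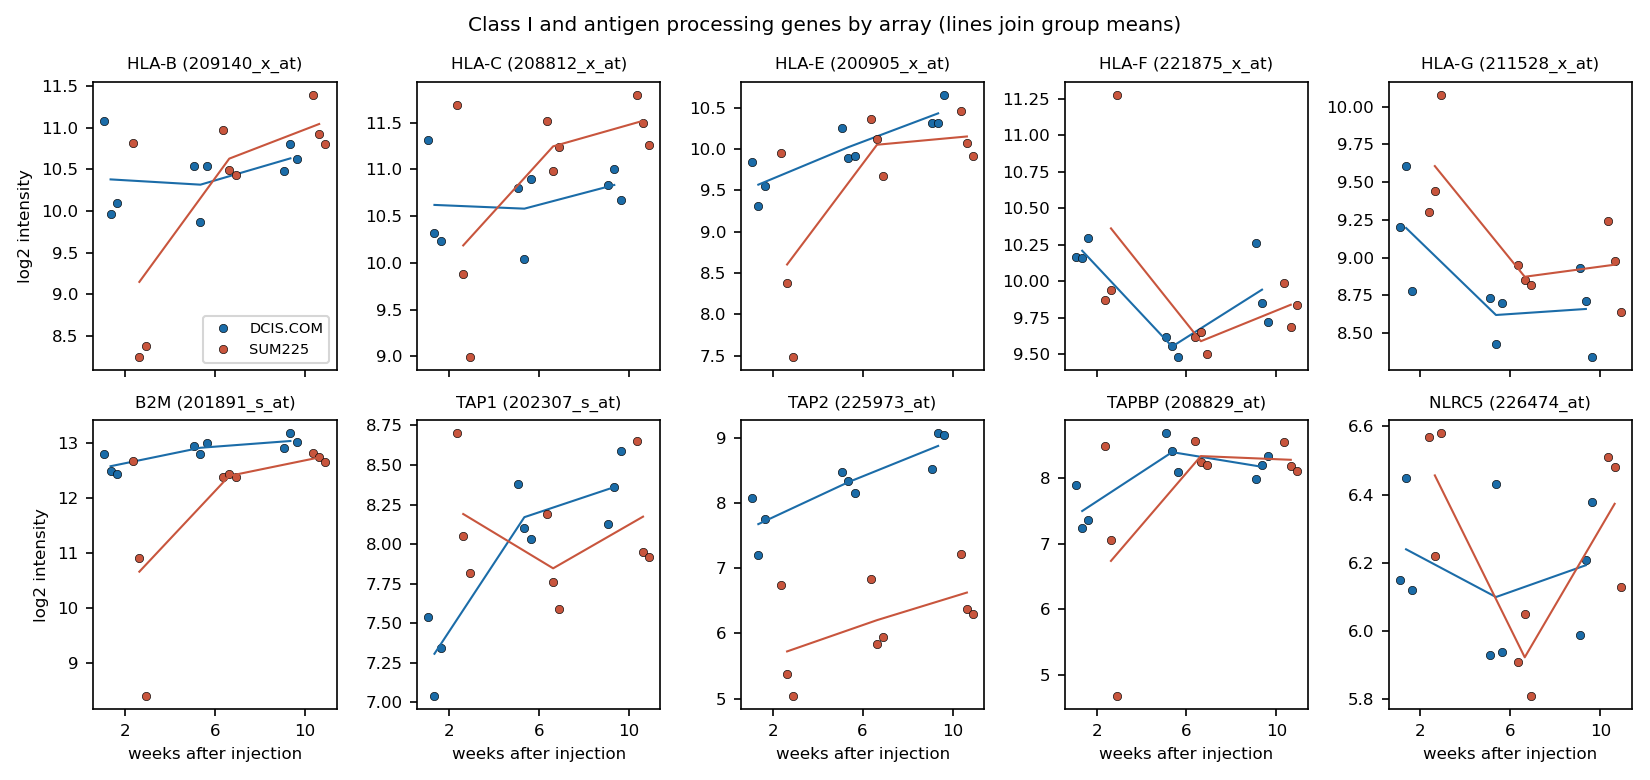
Log2 intensity (vertical axis, own scale in each panel) of the brightest named probe set of the 10 genes by weeks after injection, with 1 point per array, DCIS.COM in blue and SUM225 in red, and lines through the group means of 3 arrays. TAP1 and TAP2 of DCIS.COM lie higher after 2 weeks, SUM225 lies below DCIS.COM for TAP2 at each time, and replicates 2 and 3 of 2-week SUM225 lie far below replicate 1 for B2M, TAPBP and HLA-B.

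B2M, the light chain shared by all class I molecules, passed no comparison of times on its brightest probe set and was lower in SUM225 than in DCIS.COM at 6 weeks. In DCIS.COM 201891_s_at read 12.81, 12.49 and 12.44 at 2 weeks, 12.94, 12.80 and 13.01 at 6 weeks and 12.91, 13.18 and 13.03 at 10 weeks. All 10-week arrays lay above those of 2 weeks, and 6-week arrays overlapped them. Changes from 2 weeks were 0.34 (SE 0.15, adjusted p = 0.11) and 0.46 (SE 0.17, adjusted p = 0.065), and neither passed. In SUM225 it read 12.68, 10.90 and 8.39 at 2 weeks, 12.38, 12.44 and 12.39 at 6 weeks and 12.82, 12.74 and 12.66 at 10 weeks. Only replicates 2 and 3 of 2 weeks lay apart, and the changes of 1.75 (SE 0.92) and 2.08 (SE 0.92) did not pass (adjusted p = 0.14 and 0.086). At 6 weeks all SUM225 arrays were below all DCIS.COM arrays, with a difference of -0.52 (SE 0.11, adjusted p = 0.0047, 1.43-fold lower), whereas at 10 weeks the difference of -0.30 (SE 0.13) had an adjusted p of 0.13. The second probe set, 216231_s_at, was also lower in SUM225 at 6 weeks (-0.84, SE 0.24, adjusted p = 0.023), with overlapping arrays.

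The last probe set of B2M, 232311_at, was higher in SUM225. It stayed between 4.98 and 5.53 on all 9 DCIS.COM arrays. In SUM225 it read 5.47, 5.04 and 5.47 at 2 weeks, 6.45, 7.38 and 6.11 at 6 weeks and 7.37, 7.25 and 7.82 at 10 weeks. It rose in SUM225 by 1.32 (SE 0.35, adjusted p = 0.038) at 6 weeks and by 2.15 (SE 0.25, adjusted p = 0.012) at 10 weeks, and its 6-week and 10-week arrays all lay above those of 2 weeks. Without replicates 2 and 3 of 2 weeks the changes were 1.17 (adjusted p = 0.089) and 2.01 (adjusted p = 0.0061). SUM225 exceeded DCIS.COM by 1.32 at 6 weeks (SE 0.29, adjusted p = 0.0064) and by 2.27 at 10 weeks (SE 0.16, adjusted p = 1.0e-05), where no detection call shows the DCIS.COM readings to be above background. Which part of the B2M transcript this probe set reads is not given in the sources used here.

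The classical heavy chains HLA-B and HLA-C passed no comparison of times in DCIS.COM on their brightest probe sets. HLA-B (209140_x_at) read 11.08, 9.96 and 10.10 at 2 weeks, 10.54, 9.87 and 10.54 at 6 weeks and 10.48, 10.80 and 10.62 at 10 weeks, and the groups overlapped. Its changes were -0.06 (SE 0.3, adjusted p = 0.89) and 0.26 (SE 0.28, adjusted p = 0.46). On another probe set, 208729_x_at, HLA-B fell in DCIS.COM by 0.63 at 6 weeks (SE 0.19, adjusted p = 0.035), with no overlap of the arrays. In SUM225 HLA-B read 10.82, 8.24 and 8.38 at 2 weeks, 10.97, 10.49 and 10.43 at 6 weeks and 11.40, 10.93 and 10.81 at 10 weeks. Its increase by 1.90 to 10 weeks (SE 0.65, adjusted p = 0.044, 3.73-fold) passed although the arrays overlapped, since replicate 1 of 2 weeks was slightly above the lowest 10-week array. Without replicates 2 and 3 of 2 weeks the change was 0.23 (adjusted p = 0.49), and the call was also lost when any single array other than that replicate 1 was left out, with changes of 1.45 to 2.02 and adjusted p of 0.11 to 0.14. The other 2 probe sets of HLA-B gave -0.21 (adjusted p = 0.43) and 0.17 (adjusted p = 0.69) in SUM225 at 10 weeks. Between the lines 211911_x_at was higher in SUM225 at 6 weeks (0.38, SE 0.13, adjusted p = 0.047).

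HLA-C was higher in SUM225 than in DCIS.COM at 10 weeks on its brightest probe set. All 4 of its probe sets end in _x_at, and the part of signal shared between heavy chains or alleles was not tested. The brightest probe set (208812_x_at) read 10.83, 11 and 10.67 in DCIS.COM and 11.80, 11.5 and 11.26 in SUM225. The groups did not overlap, and the difference was 0.69 (SE 0.17, adjusted p = 0.013, 1.61-fold). Differences of 0.72 (SE 0.17, adjusted p = 0.012) and 0.77 (SE 0.16, adjusted p = 0.0067) were read by 214459_x_at and 216526_x_at, and the last probe set, 211799_x_at, read 0.35 (adjusted p = 0.11). At 6 weeks the brightest differed by 0.67 (SE 0.23) with an adjusted p of 0.053, and 211799_x_at passed (0.42, SE 0.13, adjusted p = 0.033). The latter fell between 2 and 6 weeks by 0.81 in DCIS.COM (SE 0.16, adjusted p = 0.01) and by 0.77 in SUM225 (SE 0.21, adjusted p = 0.039), or changed by -0.54 (adjusted p = 0.051) without replicates 2 and 3 of 2 weeks. By 10 weeks it had fallen by 0.68 in DCIS.COM (adjusted p = 0.02) and by 0.70 in SUM225 (adjusted p = 0.038), or changed by -0.47 (adjusted p = 0.1) without those arrays.

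Among the nonclassical chains, HLA-E rose in DCIS.COM. Its brightest probe set (200905_x_at) read 9.85, 9.31 and 9.55 at 2 weeks, 10.26, 9.89 and 9.92 at 6 weeks and 10.32, 10.32 and 10.66 at 10 weeks. All later arrays were above the 2-week arrays. The change was 0.45 at 6 weeks (SE 0.18, adjusted p = 0.077) and 0.87 at 10 weeks (SE 0.19, adjusted p = 0.018, 1.82-fold). The latter call was lost without replicate 2 or 3 of 10 weeks or of 2 weeks, with changes of 0.74 to 0.92 and adjusted p of 0.061 to 0.082. Another probe set, 200904_at, whose ID carries no sign of shared probes, read 7.99, 7.50 and 7.74, then 8.71, 8.17 and 8.44, and then 8.47, 8.90 and 8.73 in DCIS.COM. It rose by 0.69 at 6 weeks (SE 0.19, adjusted p = 0.027) and by 0.95 at 10 weeks (SE 0.19, adjusted p = 0.013).

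In SUM225, 200904_at read 7.19, 6.73 and 6.45 at 2 weeks, 7.78, 7.49 and 7.40 at 6 weeks and 7.97, 7.61 and 7.62 at 10 weeks. It also rose there, by 0.77 (SE 0.26, adjusted p = 0.048) and 0.94 (SE 0.26, adjusted p = 0.029), and all later arrays lay above all 2-week arrays. Without replicates 2 and 3 of 2 weeks the changes were 0.37 (adjusted p = 0.18) and 0.54 (adjusted p = 0.078). Between the lines this probe set was lower in SUM225, by a difference of -0.88 at 6 weeks (SE 0.16, adjusted p = 0.0022) and of -0.97 at 10 weeks (SE 0.16, adjusted p = 0.0017). On the brightest HLA-E probe set the differences were 0.03 (SE 0.18, adjusted p = 0.94) and -0.28 (SE 0.17, adjusted p = 0.31).

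HLA-F, whose chain also occurs at the cell surface without peptide, fell in DCIS.COM by 6 weeks, and HLA-G, best known from the placenta, fell there on 2 of its 4 probe sets. HLA-F (221875_x_at) read 10.17, 10.16 and 10.30 at 2 weeks, 9.62, 9.56 and 9.48 at 6 weeks and 10.26, 9.85 and 9.72 at 10 weeks in DCIS.COM. It fell by 0.66 from 2 to 6 weeks (SE 0.13, adjusted p = 0.012), and at 10 weeks the arrays overlapped those of 2 weeks (-0.27, SE 0.18, adjusted p = 0.25). Without replicate 3 of 6 weeks the change at 6 weeks was -0.63 with an adjusted p of 0.055. The probe set 221978_at, whose ID shows no shared probes, stood at 0.01 (SE 0.16, adjusted p = 0.95) at 6 weeks, and 204806_x_at fell by 0.47 (SE 0.15, adjusted p = 0.039). In SUM225 the brightest read 9.87, 9.94 and 11.28 at 2 weeks and 9.50 to 9.99 later, with a change of -0.77 (SE 0.38, adjusted p = 0.12) to 6 weeks. There 204806_x_at fell by 0.81 (SE 0.27, adjusted p = 0.049), or changed by -0.42 (adjusted p = 0.081) without replicates 2 and 3 of 2 weeks. HLA-G (211528_x_at) read 9.20, 9.61 and 8.78 at 2 weeks and 8.73, 8.43 and 8.70 at 6 weeks in DCIS.COM, a change of -0.58 (SE 0.21, adjusted p = 0.063). Of its other probe sets, 210514_x_at and 211530_x_at fell there, by 0.81 (SE 0.16, adjusted p = 0.012) and 0.40 (SE 0.14, adjusted p = 0.047). By 10 weeks 210514_x_at had fallen by 0.75 (adjusted p = 0.036), and at 6 weeks it was higher in SUM225 than in DCIS.COM (0.38, SE 0.12, adjusted p = 0.036).

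NLRC5, the transactivator of the class I genes, did not pass in limma between any 2 groups with the 6 arrays compared. It read 6.15, 6.45 and 6.12 at 2 weeks, 5.93, 6.43 and 5.94 at 6 weeks and 5.99, 6.21 and 6.38 at 10 weeks in DCIS.COM. In SUM225 it read 6.57, 6.22 and 6.58, then 5.91, 6.05 and 5.81, and then 6.51, 6.48 and 6.13. The lowest values of SUM225 were at 6 weeks, with a change of -0.53 (SE 0.21, adjusted p = 0.069) from 2 weeks and of 0.45 (SE 0.13, adjusted p = 0.44) from 6 to 10 weeks. Without replicates 2 and 3 of 2 weeks the SUM225 change at 6 weeks was -0.65. With all 18 arrays in 1 fit NLRC5 passed there (-0.53, adjusted p = 0.014), as did 73.2% of all probe sets. After quantile normalization it did not pass (-0.43, adjusted p = 0.14).

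Counted over the brightest probe sets in DCIS.COM, 2 of the 10 genes rose and 1 fell from 2 to 6 weeks, beside 15.6% of all 54613 probe sets tested that rose and 17.1% that fell. Among the 36793 probe sets with a name these shares were 20.4% and 18.7%. The median change was 0.15 for the 10 genes and -0.15 over all probe sets. From 2 to 10 weeks 4 rose and 0 fell (14.7% and 13.1% of all), with a median of 0.36 against -0.15. The named probe sets gave 19.1% and 14.4%. From 6 to 10 weeks 0 passed in limma and 3 had an unadjusted p under 0.05, while 0.00549% of all probe sets passed. SAM (significance analysis of microarrays), also run, called 7 of the 10 genes and 66.6% of all probe sets from 2 to 6 weeks.

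Scaling moved these counts. After quantile normalization of the deposited values, 0 of the 10 genes rose and 2 fell in DCIS.COM by 6 weeks, and 2 rose and 0 fell by 10 weeks. Of all probe sets 19.4% and 16.2% passed. TAP1 at 6 weeks then stood at 0.49 (adjusted p = 0.062), TAPBP at 0.48 and 0.23 (adjusted p = 0.1 and 0.28) and HLA-E at -0.01 and 0.40 (adjusted p = 0.97 and 0.089), while TAP1 (0.61, adjusted p = 0.031) and TAP2 (0.71, adjusted p = 0.041) passed at 10 weeks. Centering arrays on their medians gave 3 higher and 1 lower at 6 weeks and 5 higher at 10 weeks (24.1% and 19.5% of all). It moved the median change of all probe sets from -0.15 to 0.01 at 6 weeks and from -0.15 to 0.02 at 10 weeks in DCIS.COM, and from -0.39 to -0.13 at both times in SUM225. The share of rises among all calls moved with it from 47.7% to 74.9% and from 52.9% to 79.9% in DCIS.COM, and from 39.8% to 62.1% and from 37.9% to 54.2% in SUM225. With quantile normalization that share in SUM225 was 100% of only 17 calls at 6 weeks and 53.3% at 10 weeks, and the median change was -0.23 and -0.24.

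In SUM225, 0 of the 10 genes passed from 2 to 6 weeks in limma, with 3 at an unadjusted p under 0.05, while 38.8% of all probe sets passed in limma (15.4% rose and 23.4% fell). Among probe sets with a name 19.8% rose and 24.8% fell. SAM called 9 of the 10 genes and 80.1% of all probe sets. The median change was 0.77 against -0.39 over all. From 2 to 10 weeks 1 rose and 0 fell (18.5% and 30.3% of all), with a median of 1.12 against -0.39, and from 6 to 10 weeks 0 passed with 2 at an unadjusted p under 0.05 (0.0128% of all). Without replicates 2 and 3 of 2 weeks, TAP1 and NLRC5 fell and 0 genes rose by 6 weeks (10.2% of all probe sets rose and 6.96% fell), and 0 passed by 10 weeks (13.2% and 11.9%). The medians then turned to -0.35 and -0.15, against -0.09 and -0.11 over all probe sets, and 9 of the 10 changes to 6 weeks and 7 of the 10 to 10 weeks were negative. By 6 weeks HLA-B went from 1.49 to -0.19, HLA-C from 1.06 to -0.45, B2M from 1.75 to -0.28, TAP2 from 0.49 to -0.54 and TAPBP from 1.60 to -0.14, and none of these changes passed with or without those arrays. Between the lines 0 genes passed at 2 weeks (2 at an unadjusted p under 0.05, 1.59% of all probe sets called), 0 were higher and 2 lower in SUM225 at 6 weeks (15.4% and 14.3% of all), and 1 was higher and 1 lower at 10 weeks (13.5% and 12.8%). The difference between the lines in the change from 2 to 6 weeks passed for 0 genes, with 1 at an unadjusted p under 0.05 and 0.84% of all probe sets called.

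**Figure D2:**
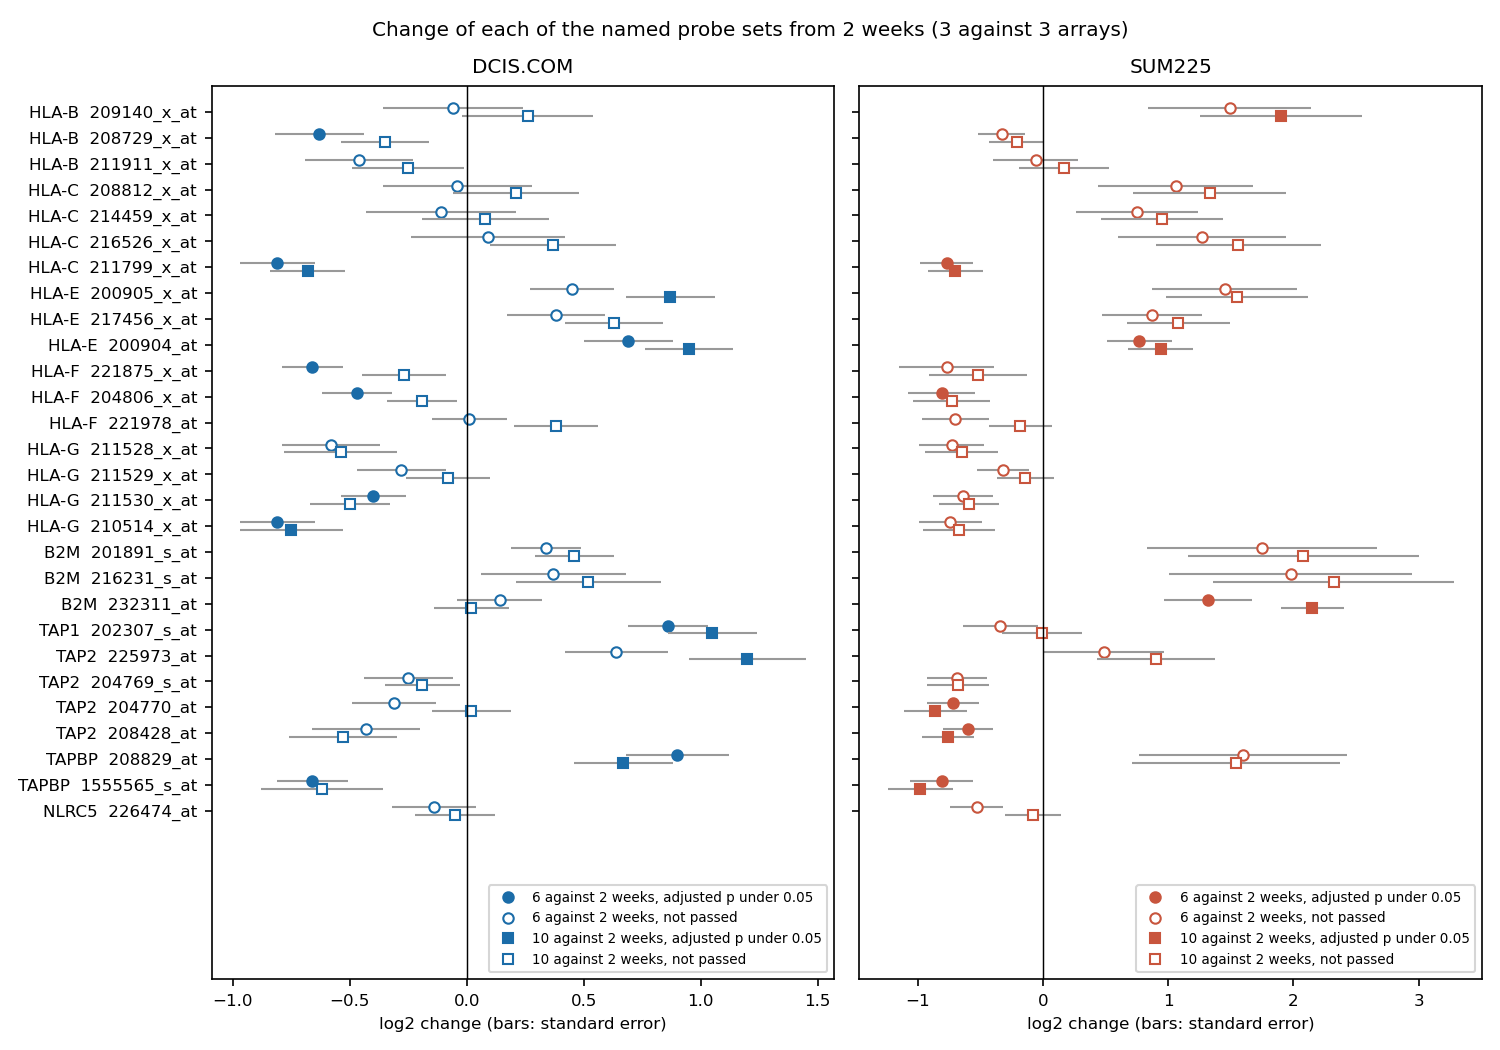
Log2 change from 2 weeks (horizontal axis) of each of the 28 named probe sets, DCIS.COM left and SUM225 right, with circles for 6 and squares for 10 weeks, filled where the adjusted p was under 0.05, and bars for the standard error. Probe sets of TAP2, TAPBP, HLA-B and HLA-C lie on both sides of 0, and the bars are widest for B2M and TAPBP in SUM225.

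Probe sets of one gene differed in sign in several cases. In DCIS.COM, 3 of the 28 probe sets rose and 7 fell from 2 to 6 weeks, beside 15.6% and 17.1% of all. Among probe sets with a name the shares were 20.4% and 18.7%, and 19.8% and 24.8% in SUM225. In SUM225 2 rose and 5 fell (15.4% and 23.4% of all), and without replicates 2 and 3 of 2 weeks 0 rose and 3 fell, namely TAP1, TAP2 on 204770_at and NLRC5 (10.2% and 6.96% of all). The 3 probe sets of HLA-E had changes of 0.38 to 0.69 in DCIS.COM and 0.77 to 1.45 in SUM225. The 4 probe sets of HLA-G had changes of -0.81 to -0.28 and of -0.74 to -0.32. HLA-B spanned -0.63 to -0.06 in DCIS.COM and -0.33 to 1.49 in SUM225, TAP2 spanned -0.43 to 0.64 and -0.72 to 0.49, and HLA-C spanned -0.81 to 0.09 and -0.77 to 1.27. A direction for HLA-B, HLA-C, TAP2 or TAPBP is therefore that of the named probe set only.

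**Figure D3:**
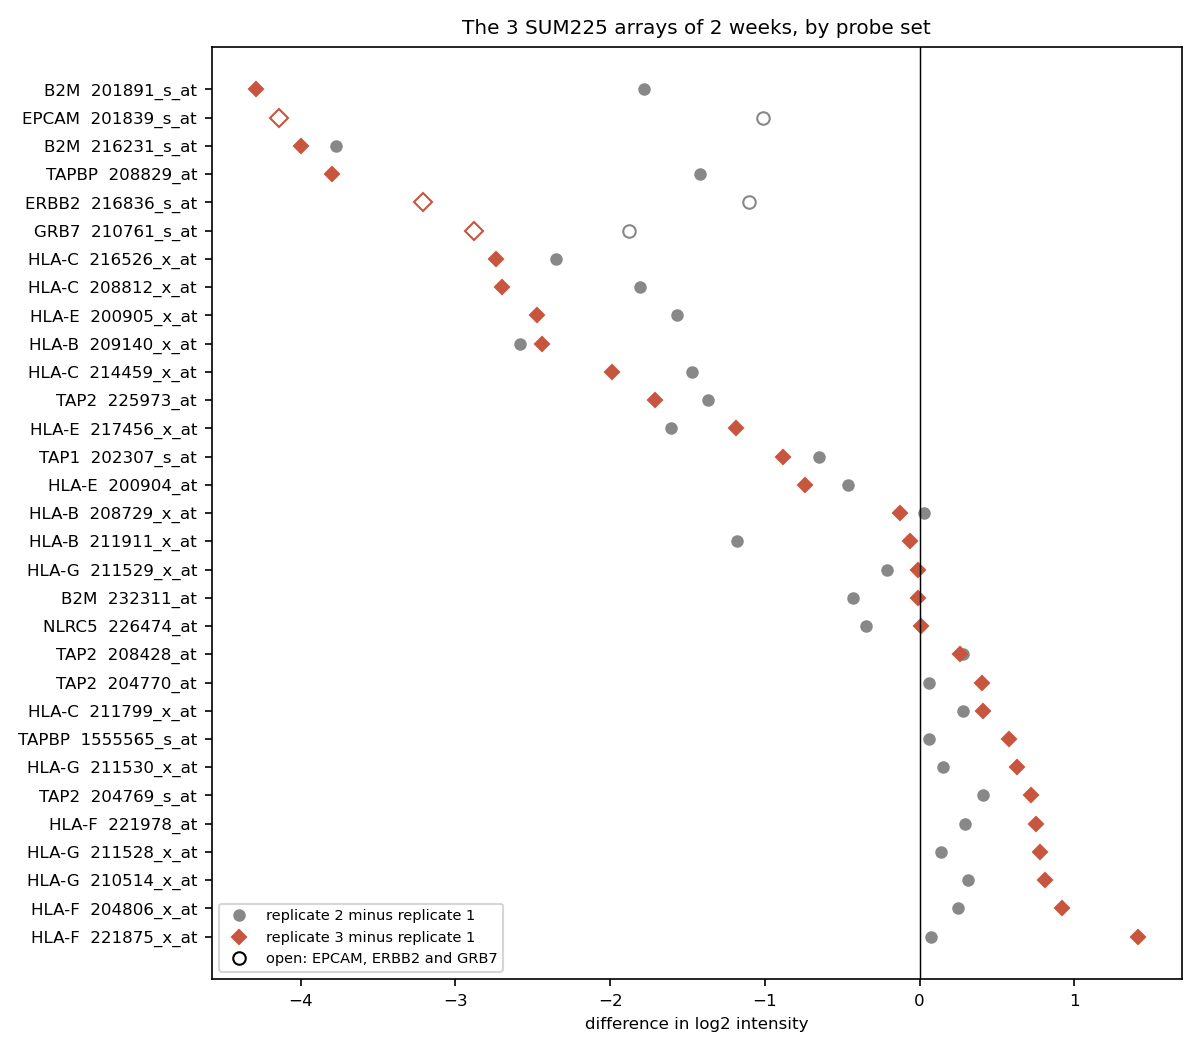
Difference in log2 intensity of replicates 2 (grey circles) and 3 (red diamonds) from replicate 1 of 2-week SUM225 (horizontal axis) for the 28 probe sets of the 10 genes and, with open symbols, EPCAM, ERBB2 and GRB7. The brightest probe sets of B2M, TAPBP, HLA-C and HLA-E lie on the left with EPCAM and ERBB2. So do B2M 216231_s_at and HLA-C 214459_x_at and 216526_x_at. The brightest probe sets of HLA-F and HLA-G in replicate 3 lie on the right. B2M 232311_at, TAPBP 1555565_s_at and HLA-C 211799_x_at lie near 0 or to its right.

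Within the 2-week SUM225 group the 10 genes did not move as one. Between replicate 1 and replicate 3, on the brightest probe sets, B2M differed by -4.29, TAPBP by -3.80, HLA-C by -2.70, HLA-E by -2.47 and HLA-B by -2.44, beside -4.14 for EPCAM and -3.21 for ERBB2, the HER2 gene. HLA-F differed by 1.41 and HLA-G by 0.78 in the other direction. Of the 28 probe sets 16 were lower and 12 higher in replicate 3, with a median of -0.03, whereas over all probe sets 28.8% were lower and the median was 0.53. Whether the composition of the sorted cells had a part in these differences was not tested.

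**Figure D4:**
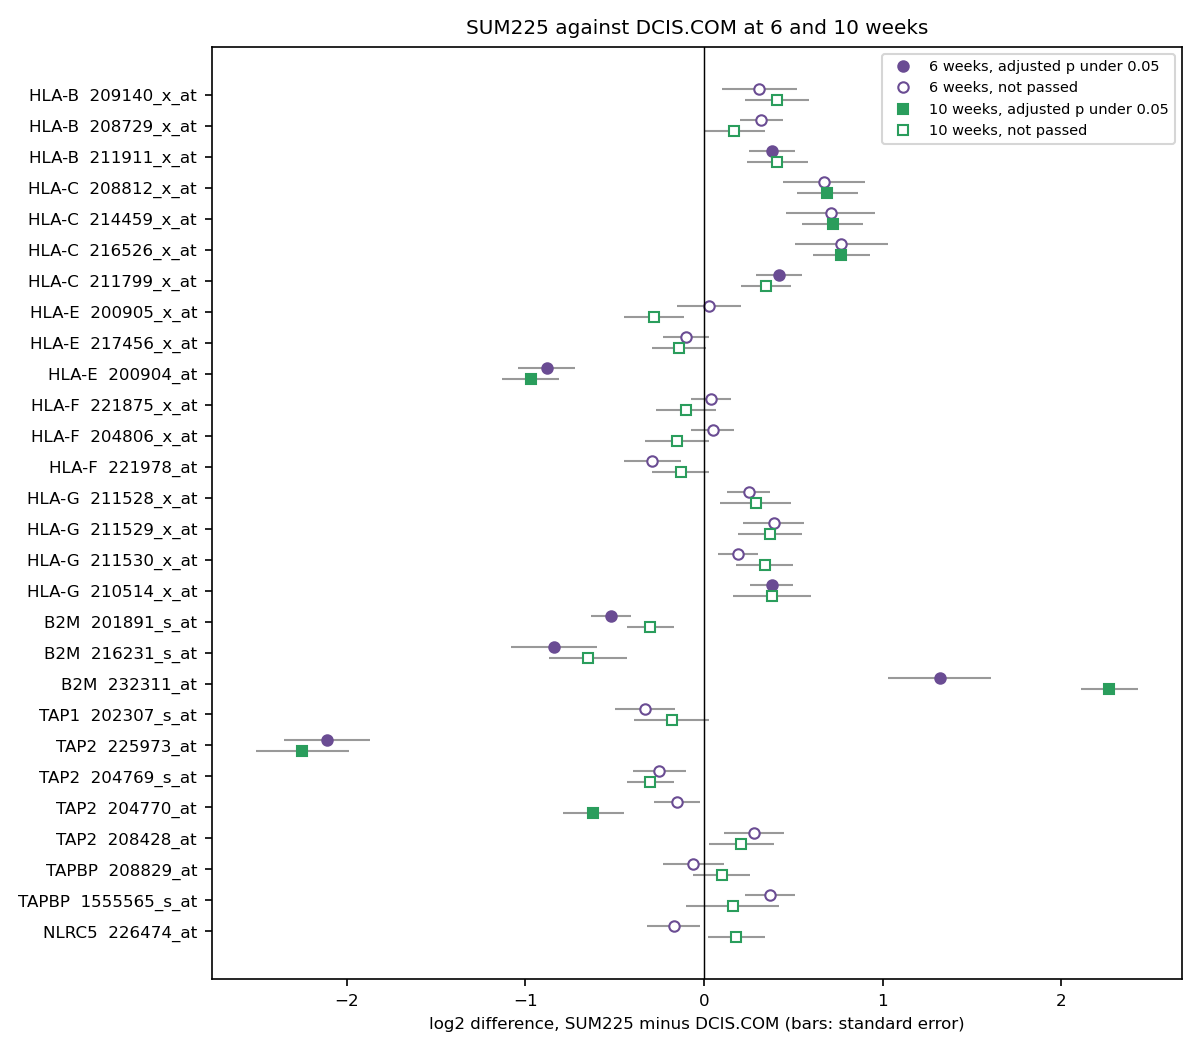
Log2 difference between SUM225 and DCIS.COM (horizontal axis, SUM225 minus DCIS.COM) for each of the 28 probe sets at 6 weeks (circles) and 10 weeks (squares), filled where the adjusted p was under 0.05, with bars for the standard error. TAP2 225973_at lies farthest to the left, B2M 232311_at farthest to the right, and HLA-E 200904_at is lower in SUM225 at both times.

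The genes that prepare and load peptides, 12 in number, changed in both directions. In DCIS.COM 4 rose and 2 fell by 6 weeks (median 0.37), and 5 rose and 2 fell by 10 weeks (median 0.03). Over all probe sets in DCIS.COM 15.6% rose and 17.1% fell by 6 weeks, and 14.7% rose and 13.1% fell by 10 weeks. The shares in SUM225 by 6 weeks were 15.4% and 23.4%. Among probe sets with a name 20.4% rose and 18.7% fell in DCIS.COM by 6 weeks, and 19.1% and 14.4% by 10 weeks. In SUM225 by 6 weeks 19.8% and 24.8% of the named probe sets did so. In SUM225 2 rose and 2 fell by 6 weeks (median 0.40, or -0.15 after quantile normalization), and without replicates 2 and 3 of 2 weeks 1 rose and 3 fell (median -0.03). ERAP1, the aminopeptidase that trims peptides in the endoplasmic reticulum, rose by 1.09 in DCIS.COM (SE 0.19, adjusted p = 0.0078) and by 1.39 in SUM225 (SE 0.35, adjusted p = 0.038) at 6 weeks. PSMB8, a subunit of the immunoproteasome, rose by 0.82 in DCIS.COM (SE 0.21, adjusted p = 0.023) and stood at 0.15 in SUM225 (SE 0.32, adjusted p = 0.69). The chaperone CANX (calnexin) rose by 0.66 in DCIS.COM (SE 0.14, adjusted p = 0.013). PSME2, a subunit of the proteasome activator PA28, fell by 1.18 in DCIS.COM (SE 0.25, adjusted p = 0.013) and by 1.05 in SUM225 (SE 0.25, adjusted p = 0.038). Both ERAP1 (0.61, adjusted p = 0.048) and PSME2 (-0.63, adjusted p = 0.048) also passed in SUM225 without those 2 arrays.

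Of 20 named regulators of class I genes, which hold interferon receptors, JAK, STAT and IRF proteins, the inhibitor SOCS1 and the RFX, NF-Y, CREB and NF-kappa B factors, 15 rose and 0 fell in DCIS.COM by 6 weeks, with a median change of 0.86. By 10 weeks 13 rose and 0 fell (median 0.81). Over all probe sets 15.6% rose by 6 weeks and 14.7% by 10 weeks in DCIS.COM, and 15.4% and 18.5% in SUM225. Among probe sets with a name, from which the list was drawn, the shares were 20.4%, 19.1%, 19.8% and 23.1%. In SUM225 9 rose and 0 fell at each time, with medians of 1.22 and 1.35, and without replicates 2 and 3 of 2 weeks 8 rose by 6 weeks and 7 by 10 weeks, with a median of 0.36 at each time (10.2% and 13.2% of all probe sets then rose). After quantile normalization 6 rose in DCIS.COM and 0 in SUM225 by 6 weeks, with medians of 0.49 and 1.21. Under that setting 19.4% of all probe sets passed in DCIS.COM and only 17 probe sets in SUM225. The count of 0 in SUM225 therefore cannot set the regulators apart from other genes. NFYA and NFYC, subunits of the factor that binds CCAAT boxes, rose by 1.25 (SE 0.14, adjusted p = 0.0024) and 1 (SE 0.2, adjusted p = 0.011) in DCIS.COM at 6 weeks and by 1.15 (SE 0.25, adjusted p = 0.038) and 1.73 (SE 0.51, adjusted p = 0.041) in SUM225. STAT2, a signal transducer of type I interferon, rose by 0.69 (SE 0.15, adjusted p = 0.013) and 1.66 (SE 0.45, adjusted p = 0.039). CREB1, a member of the family that binds the X2 box, rose by 0.85 (SE 0.25, adjusted p = 0.035) and 1.68 (SE 0.4, adjusted p = 0.038). These 4 genes also passed by 6 weeks without replicates 2 and 3 of SUM225 at 2 weeks, with changes of 0.66 to 0.84. Between the lines, 10 of the 20 were lower and 2 higher in SUM225 at 6 weeks (14.3% and 15.4% of all probe sets). At 10 weeks 6 were lower and 3 higher (12.8% and 13.5%). The interferon receptor chains IFNGR2 and IFNAR2, singled out after their values were seen, were among the lower ones, with differences of -2.34 (SE 0.18, adjusted p = 9.1e-06) and -1.83 (SE 0.18, adjusted p = 5.5e-05) at 6 weeks.

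**Figure D5:**
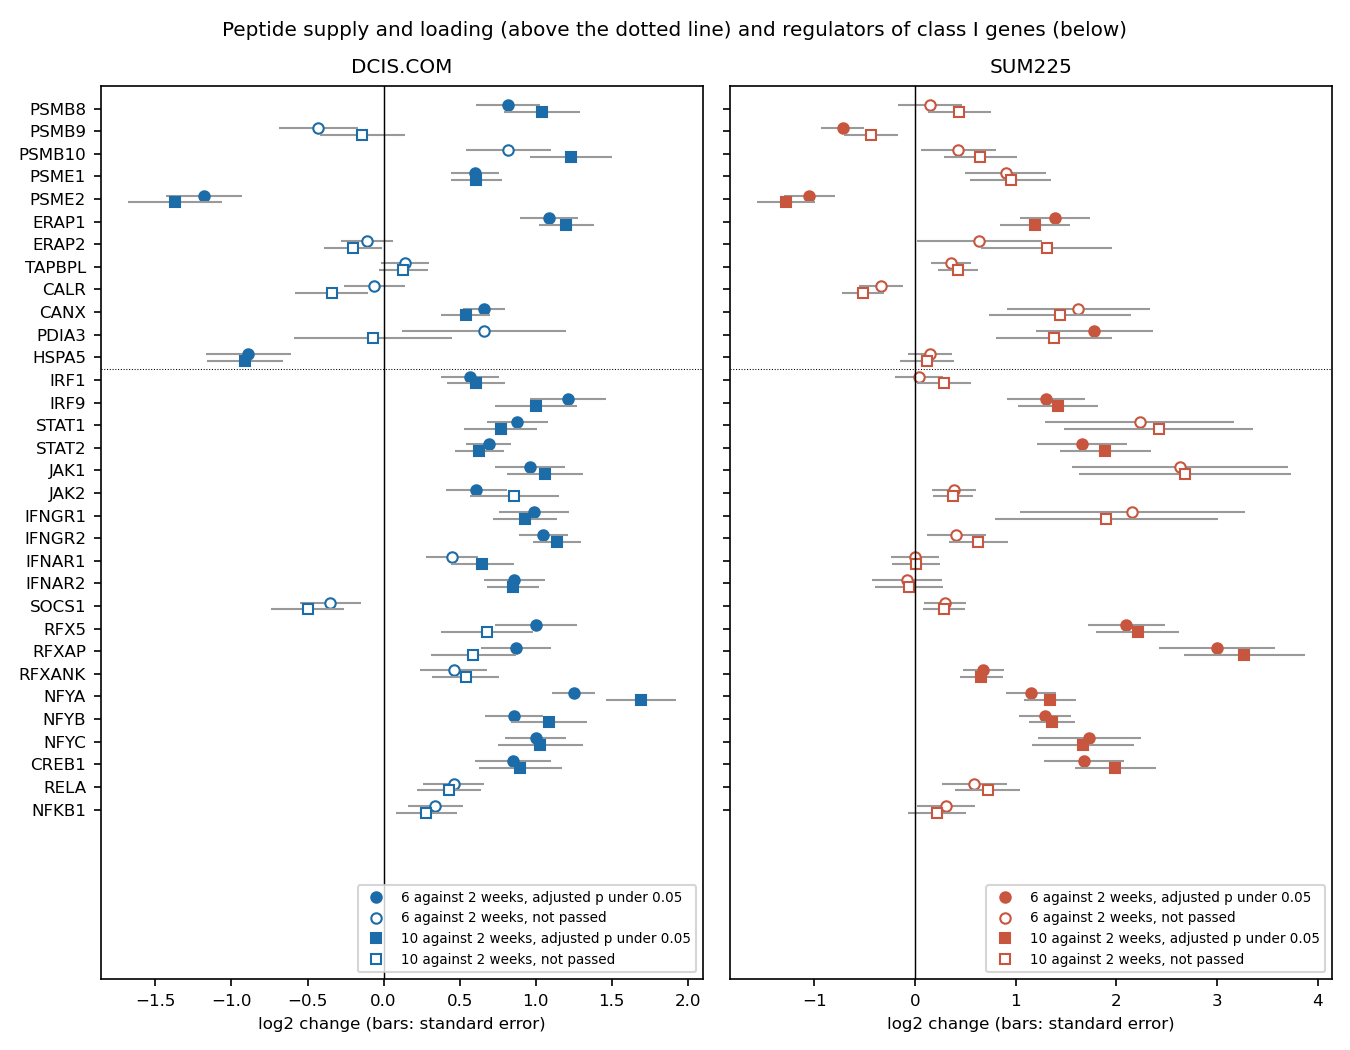
Log2 change from 2 weeks (horizontal axis) of 12 peptide supply and loading genes, above the dotted line, and of 20 regulators of class I genes, below it, in DCIS.COM (left) and SUM225 (right), with circles for 6 and squares for 10 weeks, filled where the adjusted p was under 0.05, and bars for the standard error. In DCIS.COM 15 regulators are filled at 6 weeks, all to the right of 0, and PSME2 lies to the left in both lines.

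Beside the counts below, 15.6% of all probe sets rose and 17.1% fell by 6 weeks in DCIS.COM, and 15.4% and 23.4% in SUM225. Of probe sets with a name 20.4% rose and 18.7% fell in DCIS.COM, and 19.8% and 24.8% in SUM225. Class II genes are expressed mainly by professional antigen-presenting cells. Of 12, 1 rose and 6 fell in DCIS.COM by 6 weeks (median -0.56) and 0 rose and 8 fell in SUM225 (median -0.88), and without replicates 2 and 3 of SUM225 at 2 weeks 1 fell (median -0.38). After median centering 1 of the 12 rose and 2 fell in DCIS.COM, and 0 and 2 in SUM225, with all arrays kept. Of all probe sets 24.1% and 23.9% then passed. After quantile normalization 1 rose and 3 fell in DCIS.COM (19.4% of all), and 0 passed in SUM225, where only 17 probe sets passed. On the deposited scale HLA-DOA, which modulates class II loading, fell by 0.69 in DCIS.COM (SE 0.18, adjusted p = 0.024) and by 1.17 in SUM225 (SE 0.32, adjusted p = 0.039). Of 8 class I-like genes and ligands of the NKG2D receptor, 1 rose and 2 fell in DCIS.COM and 2 rose and 4 fell in SUM225 by 6 weeks. In SUM225 without replicates 2 and 3 of 2 weeks 0 rose and 0 fell. MICA, a stress-induced ligand of NKG2D, rose in both lines, by 1.23 (SE 0.18, adjusted p = 0.0047) and 1.48 (SE 0.47, adjusted p = 0.046), and ULBP1, another ligand of that receptor, fell by 0.64 (SE 0.2, adjusted p = 0.041) and by 0.95 (SE 0.32, adjusted p = 0.049). In SUM225 without replicates 2 and 3 of 2 weeks, HLA-DOA (-0.47, adjusted p = 0.068), MICA (0.31, adjusted p = 0.19) and ULBP1 (-0.24, adjusted p = 0.27) did not pass.

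Markers of other cells moved with these lists. Over all probe sets 15.6% rose and 17.1% fell by 6 weeks in DCIS.COM, and 15.4% and 23.4% in SUM225. For probe sets with a name these shares were 20.4% and 18.7%, and 19.8% and 24.8%. In DCIS.COM, 6 of 18 epithelial markers rose and 0 fell, and 1 of 17 leukocyte markers rose and 10 fell, between 2 and 6 weeks. In SUM225, 5 epithelial markers rose and 3 fell, and 0 leukocyte markers rose and 12 fell. These counts were 3 and 2 epithelial and 0 and 2 leukocyte markers without replicates 2 and 3 of 2 weeks. AIF1, a macrophage gene, fell by 1.03 in DCIS.COM (SE 0.17, adjusted p = 0.0072) and by 1.26 in SUM225 (SE 0.26, adjusted p = 0.038, or -0.84 with an adjusted p of 0.023 without those arrays). Of 9 fibroblast markers 0 rose and 2 fell in DCIS.COM and 0 rose and 5 fell in SUM225, and of 9 endothelial markers 1 rose and 5 fell, and 0 rose and 5 fell. Without those arrays 1 fibroblast marker rose and 0 fell and 0 endothelial markers rose and 2 fell in SUM225. With all arrays kept, median centering left 1 leukocyte marker higher and 6 lower by 6 weeks in DCIS.COM, and 0 and 6 in SUM225. After quantile normalization 1 rose and 7 fell in DCIS.COM, and 0 passed in SUM225, where only 17 probe sets passed. Epithelial markers that rose were 8 and 4 after centering, and 2 and 0 after quantile normalization. The summed linear intensity of the leukocyte list was 1233 to 1542 at 2 weeks, 905 to 945 at 6 weeks and 828 to 1060 at 10 weeks in DCIS.COM. In SUM225 it was 1170 to 2208, 785 to 914 and 793 to 857. CD3E, a T cell gene, also read lower after 2 weeks, although the hosts have no T cells. Its DCIS.COM values were 5.85, 6.53 and 6.20 at 2 weeks and 5.42 to 5.80 later. Its SUM225 values were 5.91, 6.59 and 6.99 at 2 weeks and 5.01 to 5.64 later. Which cells the leukocyte list reads was not tested. The part of these markers in the changes of the class I pathway was not tested.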

How the data were processed

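RNA of EpCAM-sorted cells was measured on 18 arrays. The authors used RMA, and Partek is named in their processing notes, both without a version. The deposited table holds normalized log2 intensities of 54675 probe sets. Probe annotation and genome build are not given in the sources used here. Names came from the authors' deposited tables of called probe sets, whose fold changes and q-values were not used. They gave 1 symbol to 36793 probe sets and 16909 were in neither table. The 10 genes matched RefSeq (GRCh38.p14).

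After 62 controls were left out, 54613 probe sets were tested in R 4.3.3 with limma 3.58.1, using the 6 arrays of a comparison, or the 2-week and 6-week arrays of both lines for the difference in change, with a Benjamini-Hochberg adjusted p under 0.05. A gene was represented by its brightest named probe set. Of each other list, up to 4 genes past the threshold in the most comparisons were to be named, and part of them are given. The genes, lists and the treatment of the low-EPCAM arrays were chosen with earlier results of these data known. The labels call replicates biological. Tests were tried on simulated data. Alternatives were median centering, quantile normalization, a minimum mean of 5, all 18 arrays in 1 fit, a variance trend, the replicate number as a block, other choices of probe set, SAM for 6 against 2 weeks (20 permutations, false discovery rate below 5%), and leaving out arrays. Lists and further probe sets without the low-EPCAM arrays, and lists under other scalings, were added after seeing the data. All 18 samples carry the same date in their labels, so no batch could be separated, and the number of arrays limits the precision. Python 3.11.15, pandas 2.3.3, numpy 2.4.6 and matplotlib 3.10.9 were used. A gene among those most like HLA-B is not reported here.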

Additional observations from a re-analysis of the deposited data

How the results depend on the processing

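The counts of the 10 genes depended on the setting most where 2-week arrays entered. With all 18 arrays in 1 fit they were 1 (DCIS.COM, 6 against 2 weeks), 2 (DCIS.COM, 10 against 2), 7 (SUM225, 6 against 2), 7 (SUM225, 10 against 2), 3 (lines at 2 weeks), 1 (lines at 6 weeks) and 1 (lines at 10 weeks), beside 11.6%, 19.2%, 73.2%, 75.1%, 19.4%, 16.3% and 17.6% of all probe sets called in that fit. Quantile normalization gave 2 for DCIS.COM at 10 against 2 weeks, 0 for SUM225 at 10 against 2, 1 between the lines at 2 weeks and 1 for the difference in change (16.2%, 14.7%, 1.21% and 0.425% of all). Median centering gave 0, and a variance trend 0, for SUM225 at 10 against 2 weeks (38% and 54.6% of all). For 6 against 2 weeks SAM called 7 genes (DCIS.COM) and 9 genes (SUM225), beside 66.6% and 80.1% of all probe sets. The mean of a gene's probe sets gave 2 for DCIS.COM and 2 for SUM225 at 10 against 2 weeks (27.8% and 48.8% of all). Probe sets not ending in _x_at gave 1 and 2 for SUM225 at 6 and 10 against 2 (38.8% and 48.8%). Without the 2 low-EPCAM arrays the counts were 2 and 0 for SUM225 at 6 and 10 against 2 weeks, 1 between the lines at 2 weeks and 1 for the difference in change (17.2%, 25.1%, 4.24% and 0.641% of all). With the replicate block they were 3 and 5 for SUM225 at 6 and 10 against 2 weeks and 1 between the lines at 2 weeks (44.5%, 38.4% and 5.77% of all). Deviations of same-numbered samples correlated from -0.52 to 0.35 within a line, with 6 of 18 pairs over 0.1, and at 0.63, 0.38 and 0.05 between the lines at 2 weeks. In no pair of groups did all 3 pass 0.1, so the numbers were not taken to pair the samples.

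Leaving out 1 array gave 2 to 6 for DCIS.COM at 6 against 2 weeks. The 6 came without replicate 1 of 2 weeks (53.3% of all probe sets called), and the other such fits called 6.78% to 18.2%. At 10 against 2 weeks it gave 0 to 7. The counts were 7, 2 and 1 without replicates 1, 2 and 3 of 2 weeks (45.1%, 5.66% and 5.36% of all). Without replicates 1, 2 and 3 of 10 weeks they were 4, 1 and 0 (37%, 3.83% and 3.84%). For SUM225 it gave 0 to 9 at 6 against 2 weeks and 0 to 7 at 10 against 2, with 9 and 7 reached without replicate 1 of 2 weeks (77.5% and 78.2% of all probe sets called) and 0 at 10 against 2 without any other array. Between the lines it gave 0 to 4 at 2 weeks, 2 to 3 at 6 weeks and 2 to 2 at 10 weeks, and 0 to 5 for the difference in change. The highest counts at 2 weeks and for that difference came again without replicate 1 of 2-week SUM225 (34.9% and 43.4% of all). From 6 to 10 weeks it gave 0 to 0 in both lines. TAP2 between the lines kept adjusted p values of 3.9e-06 to 0.0011 at 6 weeks and of 2.5e-05 to 0.0013 at 10 weeks. TAP1 in DCIS.COM kept 0.0029 to 0.05 at 6 weeks and 0.0043 to 0.051 at 10 weeks, and lost the latter call without replicate 3 of 10 weeks. Directions of values that passed in one of the fits turned for HLA-F in DCIS.COM at 6 against 2 weeks on the probe set not ending in _x_at (0.01, adjusted p = 0.95), for HLA-E between the lines at 6 weeks on such a probe set (-0.88, adjusted p = 0.0022) and for B2M between the lines at 10 weeks with the mean of its probe sets (0.44, adjusted p = 0.042). The cause was not tested. Of 860 changes of single genes under other settings, 734 kept their direction and side of the threshold, 59 gained and 22 lost a call, and 45 turned direction. In 42 of these 45 neither value passed, and 21 of them came without the 2 low-EPCAM arrays and 5 after quantile normalization, such as HLA-B in DCIS.COM at 10 against 2 weeks (0.26 to -0.17). Detection calls were not used here, so that no probe set has a test against background.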

Other observations

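The genes whose pattern over the 18 arrays was most like that of TAP1, by Pearson correlation of log2 values among 11533 named genes with a mean of at least 6, were PSMB10 (0.83), TRAFD1 (0.82), GBP1 (0.80), NF2 (0.79) and PLLP (0.79). Without the 3 SUM225 arrays of 2 weeks their correlations were 0.90, 0.88, 0.91, 0.88 and 0.87. PSMB10 encodes a subunit of the immunoproteasome and GBP1 an interferon-induced GTPase.

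For HLA-B, genes among the most alike were ANKRD57, GRSF1, DSCR3 and ULBP2, with correlations of 0.95, 0.95, 0.95 and 0.94, and of 0.87, 0.78, 0.71 and 0.87 without those 3 arrays. ULBP2 encodes a ligand of the NKG2D receptor. The arrays share their normalization and fall into groups by line and time, so these values describe the arrays and carry no test.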
